A study of Homo sapiens with 3 samples.

Results

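The genes that carry cells from G1 into S phase and copy their DNA were followed in MCF10A cells with obscurin shRNA against MCF10A cells with control shRNA, all under etoposide. The group held 39 genes chosen by their role, and a gene was kept where the array annotation gave a feature that symbol alone and where all 3 arrays had a value. All 39 had at least 1 feature, and 90 features in all carried their names. A value on all 3 arrays was present for 29 of them, out of 12550 genes so measured. MCM2, MCM7, ORC1 and SLBP had values on 2 arrays, CCNE2, MCM4, RRM1 and RFC2 on 1, and MCM3 and TYMS on none.

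MCF10A is an immortalised, non-tumorigenic human breast epithelial line. Per the labels, cells stably carried either obscurin shRNA-2 or the scrambled control shRNA-1, were kept under puromycin at 1.5 ug/mL, and received 150 uM etoposide for 48 hours from 70% confluency. Every array held cDNA of obscurin shRNA cells in Cy5 (channel 1) against cDNA of control shRNA cells in Cy3 (channel 2). No culture without etoposide is part of the comparison and the dyes were not swapped, so a dye effect and the shRNA cannot be told apart. The labels name 1 obscurin shRNA and call the 3 arrays independent replicates without describing the cultures, so p-values measure the spread between these arrays.

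Cyclin D with CDK4 or CDK6, and cyclin E with CDK2, phosphorylate the retinoblastoma protein and free the E2F factors, which switch on the genes of DNA synthesis. ORC, CDC6 and CDT1 load the MCM helicase at origins in G1, and in S phase CDC45 and the GINS complex activate it while polymerases, PCNA and its loader RFC work at the fork. Etoposide traps topoisomerase II on broken DNA, and DNA breaks are known to hold epithelial cells at the G1 and G2 checkpoints.

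Many of these genes share E2F-type sites near their start. The core letters TTTCCCGC, TTTCGCGC, TTTGCCGC and TTTGGCGC were searched on both strands of the RefSeq promoters (GRCh38.p14), from 250 bases before to 50 bases after the start. At least 1 match was present in 17 of the 33 promoters found for the group, against 3.33% of 27305 promoters of the same length. Matches were found for 3 of 3 E2F genes, 6 of 7 origin licensing genes and 6 of 11 fork factors, and for 0 of 4 G1 cyclins and CDKs. Among the genes tested on the arrays, the promoter held a match in 4 of 9 genes with a mean above the array median and in 9 of 16 with a mean below it. A match is a description of letters and not a measured site. The 250 bases before the start are printed for E2F1 and CDT1, which lay below the array medians at both feature positions examined below, and for CDC6 and MCM6, which lay above them at their own position. Capitals mark matches to the searched letters. The windows are chr20:33686386-33686635 on the minus strand for E2F1, chr16:88803539-88803788 on the plus strand for CDT1, chr17:40287629-40287878 on the plus strand for CDC6 and chr2:135876444-135876693 on the minus strand for MCM6.
E2F1: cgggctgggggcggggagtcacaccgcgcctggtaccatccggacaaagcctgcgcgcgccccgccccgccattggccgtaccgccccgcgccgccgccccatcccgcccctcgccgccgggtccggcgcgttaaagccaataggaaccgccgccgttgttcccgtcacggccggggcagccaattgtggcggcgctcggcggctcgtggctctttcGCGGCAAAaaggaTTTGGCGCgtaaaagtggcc
CDT1: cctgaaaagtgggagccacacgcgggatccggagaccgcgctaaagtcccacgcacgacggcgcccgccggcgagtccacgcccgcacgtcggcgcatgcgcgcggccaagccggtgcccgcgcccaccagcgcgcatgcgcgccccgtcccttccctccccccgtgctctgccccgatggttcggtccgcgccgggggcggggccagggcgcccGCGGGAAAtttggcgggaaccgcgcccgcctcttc
CDC6: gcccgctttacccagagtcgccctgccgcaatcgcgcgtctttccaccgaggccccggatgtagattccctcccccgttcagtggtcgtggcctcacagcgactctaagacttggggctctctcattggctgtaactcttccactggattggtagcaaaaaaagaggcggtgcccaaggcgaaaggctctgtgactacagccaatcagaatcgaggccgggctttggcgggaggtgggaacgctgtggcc
MCM6: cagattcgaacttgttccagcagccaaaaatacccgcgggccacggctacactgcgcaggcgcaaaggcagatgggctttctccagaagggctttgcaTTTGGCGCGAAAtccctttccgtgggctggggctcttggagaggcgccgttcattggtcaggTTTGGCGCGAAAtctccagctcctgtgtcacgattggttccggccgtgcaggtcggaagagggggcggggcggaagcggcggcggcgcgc
E2F1 held 2 matches and CDT1 held 1. MCM6 held 4, in 2 overlapping pairs on opposite strands. CDC6 held 0 in these bases, and its 1 match lay within the 50 bases after the start.

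The deposited values are log2 ratios. They probably have obscurin shRNA on top, being channel 1, with control shRNA beneath. No source used here states that direction, and every "above" or "below" in the text rests on it. Values were present for 36065, 35502 and 35674 of 45220 features on arrays 1, 2 and 3. Each value is given relative to its array's median over all features, which was 1.49, 1.28 and 1.39. On that scale the tested genes had medians of -0.47, -0.48 and -0.48, so most genes with a name lay below 0. The most repeated value of each array stood at 0.58, 0.69 and 0.61, and 39.7%, 36.2% and 38.9% of features lay within 0.5 of it. A ratio holds no level, so the epithelial identity of the cells could not be read from the arrays. Of the markers, 5 of 11 basal epithelial genes were measured (4 above the array medians by their mean, 1 below), as were 5 of 8 leukocyte genes (1 above, 4 below) and 5 of 8 fibroblast genes (3 above, 2 below). Their part in the results was not tested.

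No gene of the group passed the threshold. By limma, 0 of 29 were past an adjusted p of 0.05 above the array medians and 0 below, against 0% of 12550 genes in either direction. At an unadjusted limma p under 0.05 there were 0 members above (0.829% of all genes) and 8 below, which is 27.6% of the members and 22.8% of all genes. By mean, 10 members were above 0 (31.6% of all tested genes were) and 19 were below, a share of 65.5% against 68.4% of all tested genes. The median over members was -0.04, -0.67 and -0.62 on arrays 1, 2 and 3. In a bulk ratio, fewer cells of a type and less RNA per cell cannot be told apart.

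**Figure D1:**
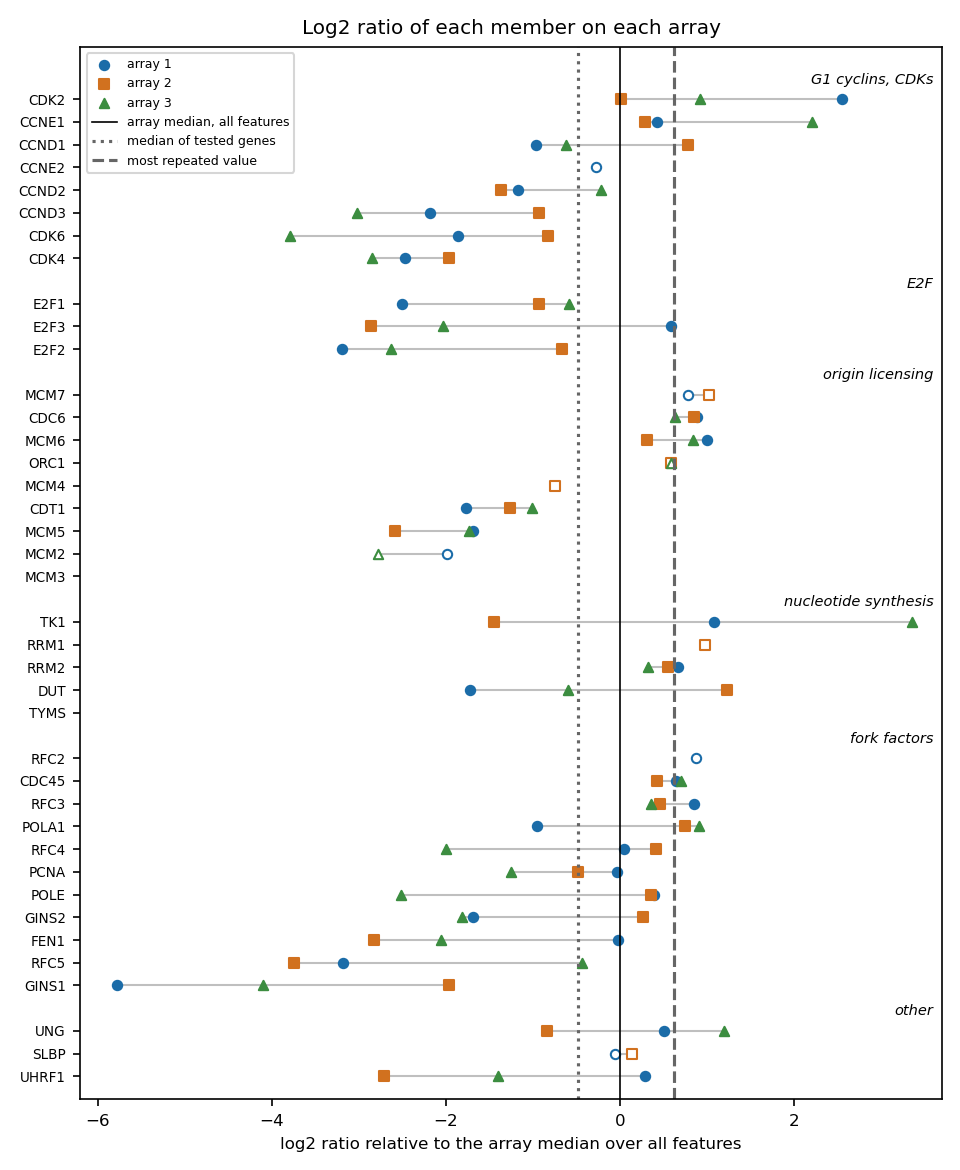
Log2 ratio of each of the 39 genes (rows, by role) on arrays 1, 2 and 3, relative to the array median over all features; filled markers are genes with a value on all 3 arrays, open markers those with fewer, and MCM3 and TYMS have none. Grey bars span the lowest to the highest array. Vertical lines mark 0, the median of the tested genes and the most repeated value. CDC6, MCM6, RRM2, CDC45 and RFC3 sit at the most repeated value, and CDK4, MCM5 and GINS1 lie to the left on all arrays.

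G1 cyclins and their kinases were spread over both sides. CDK4, the cyclin D partner that starts phosphorylation of the retinoblastoma protein, had -2.47, -1.96 and -2.84 on arrays 1, 2 and 3. All 3 values lay below the array medians, and the mean was -2.42 ± 0.38 (SE, n = 3 arrays, 95% interval -3.46 to -1.39, limma adjusted p = 0.0543). This was the smallest adjusted p of the group, and CDK4 was measured by 1 feature. Read 1 feature row earlier, a position compared further on, CDK4 had 0.43, -2.79 and -3.18 (limma adjusted p = 0.283). CDK6, the other cyclin D kinase, had -1.86, -0.82 and -3.79. CCND3, cyclin D3, had -2.18, -0.93 and -3.02, with a mean of -2.04 ± 0.54 (SE, n = 3 arrays, limma adjusted p = 0.124), and CCND2, cyclin D2, had -1.17, -1.37 and -0.22. These 4 genes were below the array median on 3 of 3 arrays, though the size differed widely between arrays for CDK6 and CCND2. The CDK6 values of arrays 1 and 3 came from different features, and that of array 2 averaged -2.88 and 1.23. No CDK6 feature had a value on all arrays. For CCND2 the features with a value also changed between arrays. Its 1 feature with a value on all 3 had -0.72, -2.58 and -1.14, and another had 0.66 on array 3. CCND1, cyclin D1, lay on both sides, at -0.97, 0.78 and -0.62. CCNE1, cyclin E1, had 0.43, 0.29 and 2.20, so its mean of 0.97 was carried by array 3 and was 0.36 without it. CDK2, the cyclin E kinase, had 2.55, 0.01 and 0.92. Its array 1 value rests on a feature at the highest value the array holds, and without such features its mean was 0.35 instead of 1.16. CCNE2, cyclin E2, had -0.28 on array 1 alone.

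The E2F transcription factors had means below the array medians, with a wide spread. E2F1, which drives the S phase programme, had -2.50, -0.93 and -0.59, and E2F2 had -3.19, -0.67 and -2.63. Averaged over features, both were below on 3 of 3 arrays, with means of -1.34 ± 0.53 and -2.16 ± 0.63 (SE, n = 3 arrays). Neither passed, at limma adjusted p of 0.240 and 0.148. On arrays 2 and 3 each, 4 E2F1 features lay above the median and 4 below. E2F2 on array 2 averaged features at -2.33 and 1.00, and on arrays 1 and 3 it rested on 1 feature. E2F3 had 0.58, -2.86 and -2.03, with array 1 on the other side of the median.

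Origin licensing genes measured on all arrays lay on both sides of the median at their own positions, each on the same side throughout. CDC6, which loads the MCM helicase together with CDT1, had 0.89, 0.85 and 0.63, and MCM6, a helicase subunit, had 1.00, 0.32 and 0.84. Their means were 0.79 ± 0.33 and 0.72 ± 0.36 (SE, n = 3 arrays), at limma adjusted p of 0.261 and 0.311. MCM5, a subunit of the same helicase, had -1.69, -2.58 and -1.73, with a mean of -2.00 ± 0.39 (SE, n = 3 arrays, limma adjusted p = 0.0723), though it had 0.41 on array 1 when read 1 feature row earlier. At their own positions the values of MCM5 and MCM6 did not overlap, although both proteins sit in 1 complex. Read 1 feature row earlier they did, with MCM5 at 0.41 and 0.52 and MCM6 at -0.08 and 1.51 on arrays 1 and 3. CDT1, the other licensing factor, had -1.77, -1.27 and -1.02, with a mean of -1.35 ± 0.36 (SE, n = 3 arrays, limma adjusted p = 0.129). Its 2 features disagreed, at -3.25 and 0.72 on array 2 and -2.87 and 0.84 on array 3, so these array values average opposite sides. Of the helicase subunits with fewer values, MCM2 had -1.98 and -2.78 on arrays 1 and 3, MCM7 had 0.78 and 1.02 on arrays 1 and 2, and MCM4 had -0.75 on array 2. ORC1, the largest subunit of the origin recognition complex, had 0.59 on arrays 2 and 3 each. At their own positions the subunits of the helicase thus lay on both sides of the median within an array. MCM6 and MCM7, on the upper side, lay within 0.5 of the most repeated value on every array where they had a value. Their side therefore turns on the zero point.

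Genes of nucleotide synthesis were few and had no common side. RRM2, the S phase subunit of ribonucleotide reductase, had 0.67, 0.55 and 0.32, a mean of 0.52 ± 0.34 (SE, n = 3 arrays, limma adjusted p = 0.392). TK1, thymidine kinase, had 1.08, -1.45 and 3.36, and DUT, which removes dUTP, had -1.73, 1.23 and -0.60. In TK1 and DUT the arrays fell on both sides of the median, so no direction can be given for either. RRM1, the large subunit of ribonucleotide reductase, had 0.98 on array 2.

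Fork factors held the lowest gene of the group and 2 of its tightest. GINS1, a subunit of the GINS complex, had -5.78, -1.97 and -4.10, with a mean of -3.95 ± 0.84 (SE, n = 3 arrays, 95% interval -6.27 to -1.62, limma adjusted p = 0.0848). Read 1 feature row earlier on array 1, a position compared further on, it had 0.44. GINS2, of the same complex, had -1.69, 0.27 and -1.81. CDC45, which joins GINS and MCM in the active helicase, had 0.65, 0.42 and 0.70. At the own positions the 3 arrays agreed for CDC45, which lay above GINS1 on each of them. CDC45 and RFC3 both lay within 0.5 of the most repeated value on all 3 arrays, where many features gather. The RFC3 values of arrays 1 and 2 came from different features. Among the subunits of the RFC clamp loader, RFC3 had 0.85, 0.46 and 0.36, RFC4 had 0.04, 0.41 and -2.00, RFC5 had -3.19, -3.75 and -0.43, and RFC2 had 0.87 on array 1 alone. The clamp loader genes therefore had no common side. PCNA, the sliding clamp, had -0.04, -0.48 and -1.25, and FEN1, the nuclease that trims Okazaki fragments, had -0.02, -2.83 and -2.06. POLA1, the catalytic subunit of the priming polymerase, had -0.95, 0.75 and 0.91, and POLE, that of the leading strand polymerase, had 0.39, 0.35 and -2.52. POLA1 crossed the median between arrays. For POLE, arrays 1 and 2 had a value from 1 feature and array 3 from another, so its arrays cannot be compared.

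Of the remaining S phase genes, UHRF1, which recruits the maintenance DNA methyltransferase behind the fork, had 0.29, -2.71 and -1.40. Its values of arrays 1 and 2 came from different features, and on array 3 its features had -1.64, -3.13 and 0.57. UNG, which removes uracil from DNA, had 0.51, -0.84 and 1.19. SLBP, which binds histone mRNA, had -0.06 and 0.13 on arrays 1 and 2.

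By role, the medians of the genes with a value on all arrays were -1.17, -0.82 and -0.62 for 7 G1 cyclins and CDKs, -2.50, -0.93 and -2.03 for 3 E2F genes, and -0.40, -0.48 and -0.19 for 4 origin licensing genes on arrays 1, 2 and 3. They were 0.67, 0.55 and 0.32 for 3 nucleotide synthesis genes and -0.03, 0.31 and -1.53 for 10 fork factors. The medians of the nucleotide synthesis genes were the values of RRM2 on each array, since TK1 and DUT lay to either side, and RRM2 lay near the most repeated value on 3 of 3 arrays. Those of the G1 and E2F genes lay below the median of all tested genes on 3 of 3. No test was made of these differences between roles. For the licensing genes the median lies between CDC6 and MCM6 above and CDT1 and MCM5 below, near none of them.

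**Figure D2:**
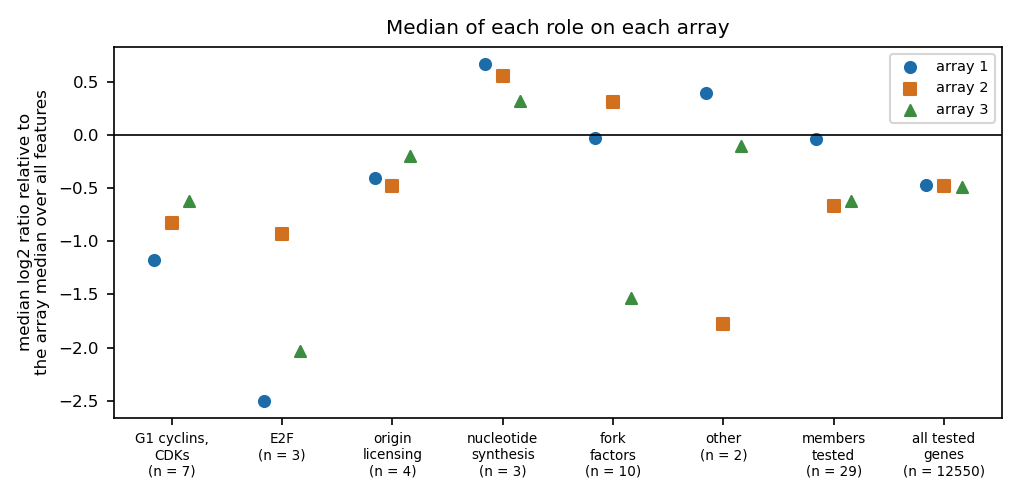
Median log2 ratio of each role on arrays 1, 2 and 3, relative to the array median over all features, with the number of genes under each name; the last columns hold the 29 members tested and all 12550 tested genes. The E2F genes span -2.50 to -0.93 between arrays, and the fork factors span -1.53 to 0.31, while all tested genes stay between -0.48 and -0.47.

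The same side on every array was held by 7 members above the medians, which is 24.1% of 29 against 15.7% of all genes, and by 12 below, 41.4% against 33.8%. Of the 7 above, 5 (CDC6, MCM6, RRM2, CDC45 and RFC3) lay within 0.5 of the most repeated value on all 3 arrays, where 8.02% of the tested genes lay. Whether these 5 count as higher in obscurin shRNA cells thus turns on the zero point. With the most repeated value taken as zero, CDC6 had a mean of 0.16 and CDC45 of -0.03. With that zero point, 5 members passed by limma on the lower side, CDK4, MCM5, GINS1, CDT1 and CCND3, with means of -3.05, -2.62, -4.57, -1.97 and -2.67 and adjusted p of 0.0241, 0.0300, 0.0376, 0.0399 and 0.0440. They were 17.2% of the members, and 17.2% of all genes passed in that direction, so the share equalled the background; on the upper side 0 members passed, against 0.0159% of all genes. With the values as deposited, 9 members were above 0 and 2 below at an unadjusted limma p under 0.05 (31.0% and 6.90%, against 30.4% and 6.14% of all genes).

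Other genes of the pathway, 54 measured of 68 listed, were likewise without a call. At an unadjusted limma p under 0.05, 0 were above (0.829% of all genes) and 8 below, which is 14.8% against 22.8% of all genes. Their median mean was -0.61, as was that of all tested genes. The smallest p on the lower side belonged to POLD4, a small subunit of the lagging strand polymerase, at -2.91, -2.62 and -2.58, and to LIG1, the ligase that joins Okazaki fragments, at -2.38, -2.36 and -2.24. Both missed the threshold at a limma adjusted p of 0.0524 each. On the upper side they belonged to NASP, a histone chaperone, at 3.06, 0.79 and 0.40, and to CCNA1, cyclin A1, at 0.76, 0.71 and 0.54, at limma adjusted p of 0.294 and 0.310. Genes of the G2 to M phase, 19 of 31 measured, had medians of -0.12, 0.32 and -0.13 on arrays 1, 2 and 3, against -0.47, -0.48 and -0.48 for all tested genes, and 0 above (0.829% of all genes) and 3 below at an unadjusted limma p under 0.05, which is 15.8% against 22.8% of all genes. No test of a difference between that list and the G1 to S genes was made.

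The features of a member could be set against each other for 4 genes with 10 or more features, 42 in all. At their own positions these features scattered widely on each array. The 10 features named E2F1 ranged from -6.80 to 0.50 on array 1, where 7 had a value, and from -3.44 to 1.82 on array 3, where 8 had a value. Those of PCNA ranged from -3.44 to 2.67 on array 1, and those of CCND1 from -4.75 to 7.36 on array 2. The standard deviation among CCND1 features was 1.44, 3.55 and 1.85 on arrays 1, 2 and 3. It was 0.93 between the 3 array means, which are averages and so vary less by construction. Each array mean of such a gene is therefore an average of discordant features, and a gene with 1 feature has no such check; 14 of the 29 members tested were in that position. Tested feature by feature, 4 of 44 member features passed by limma on the lower side, 9.09% against 11.9% of 16124 named features, and 0 on the upper, against 0.0372%. They were those of CDK4, 1 of E2F2 at -2.72, 1 of E2F1 at -2.64 and 1 of CCND1 at -2.07, the last 3 beside features of the same genes on the other side of the median on at least 1 array. Across the genes tested, arrays ranked members with a rho of 0.353, 0.651 and 0.362 for arrays 1 and 2, 1 and 3, and 2 and 3 (29 genes), and all genes with a rho of 0.332, 0.267 and 0.494 (12550 genes, which share each array's background).

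The position of the values was then examined with transcripts outside the group. Arrays correlated best with themselves at a displacement of 170 features, the length of a feature row. For 231 transcripts with at least 10 features each, the intraclass correlation of ranks was compared between the own position of each value and the position 1 feature row earlier, in 5 consecutive stretches of 9044 features. Agreement was higher 1 row earlier in 10 of the 15 combinations of stretch and array and higher at the own position in 5. Some of these differences were small, such as 0.065 against 0.023 for array 3 in stretch 3, which fell to the earlier row, and 0.171 against 0.067 for array 3 in stretch 2, which fell to the own position. On array 1 it was higher 1 row earlier in stretches 1 to 4, reaching 0.356 against -0.131 in stretch 1. On arrays 2 and 3 it was higher at the own position in stretches 1 and 2, at 0.511 against -0.139 and 0.446 against -0.054 in stretch 1, and higher 1 row earlier from stretch 3 on. The features of the group fell into all 5 stretches, with 16, 15, 18, 21 and 20 in order. The gene names at the own position are thus not borne out for much of the group. Why the places differ was not tested.

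**Figure D3:**
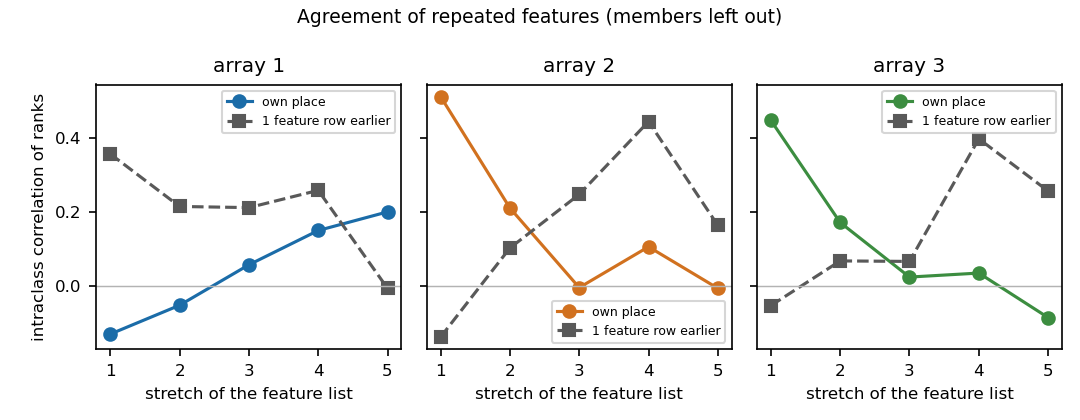
Intraclass correlation of ranks among the features of 231 repeated transcripts outside the group, by stretch of the feature list (1 to 5), for arrays 1, 2 and 3; solid lines use each value at its own position and dashed lines the value 1 feature row earlier. The lines cross between stretches 4 and 5 on array 1 and between stretches 2 and 3 on arrays 2 and 3.

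With each stretch read at its better-agreeing place, the E2F1 features drew together on arrays 1 and 3 and less so on array 2. All 10 E2F1 features then had a value on each array, with medians of -2.50, -2.94 and -2.65, and 10, 9 and 10 of 10 lay below the median of arrays 1, 2 and 3. Their standard deviation was 0.58, 1.48 and 0.54, against 2.20, 1.66 and 1.97 at the own position, and on array 2 their range was 5.38, wider than the 4.24 at the own position. The array means were -2.37, -2.61 and -2.77, all below the medians, with a mean of -2.58 ± 0.33 (SE, n = 3 arrays). E2F1 passed at a limma adjusted p of 0.0482, and it was the 1 member of 22 tested at these places that did, a share of 4.55% against 5.99% of 12451 genes on that side; on the upper side 0 members passed, against 0.0161%. With the median of features in place of their mean it passed too, at -2.70 and a limma adjusted p of 0.0446, as did 7.33% of all genes below and 0.0241% above. With 1 array left out it no longer passed, at means of -2.69, -2.57 and -2.49 and adjusted p of 0.114, 0.237 and 0.209 without arrays 1, 2 and 3. Centred on the median over the tested genes it did not pass either, at -2.07 and an adjusted p of 0.106. As deposited, against 0, it had -1.20 and an adjusted p of 0.0961. Most named genes lay on the lower side of this scale, and the tested genes' median at these places was -0.52, -0.52 and -0.50 on arrays 1, 2 and 3.

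**Figure D4:**
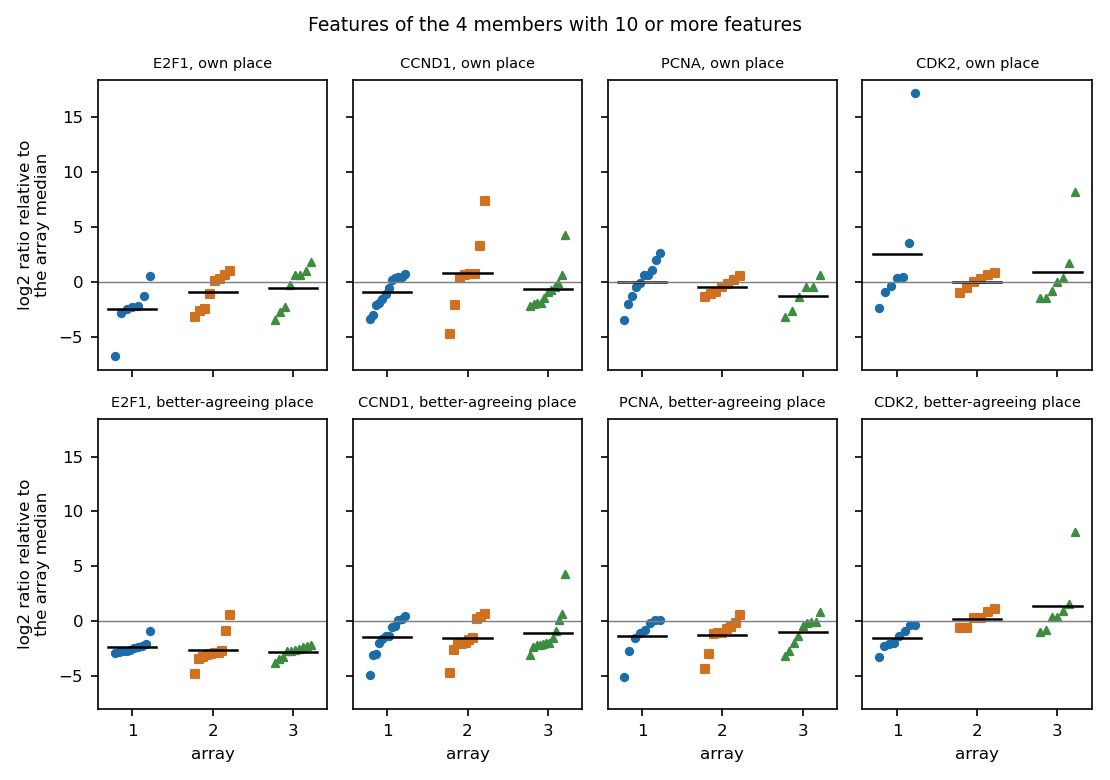
Log2 ratio of every feature named E2F1, CCND1, PCNA or CDK2 on arrays 1, 2 and 3, relative to the array median over all features, at the own position (top) and at the better-agreeing place of each stretch (bottom); black bars are means over features. At the better-agreeing place the E2F1 features lie between -3.78 and -0.91 on arrays 1 and 3 and span -4.77 to 0.61 on array 2, and the CDK2 feature at 17.18 on array 1 is no longer among them.

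The other repeated members changed in part. CCND1 had array means of -1.44, -1.55 and -1.09 at the better-agreeing places, with a mean of -1.36 ± 0.34 (SE, n = 3 arrays, limma adjusted p = 0.102), where its own positions had crossed the median. PCNA had -1.37, -1.28 and -1.0, with a mean of -1.22 ± 0.33 (SE, n = 3 arrays, limma adjusted p = 0.125). The standard deviation between arrays was 0.20 for E2F1, 0.24 for CCND1 and 0.19 for PCNA, against 1.02, 0.93 and 0.61 at the own positions. CDK2 stayed discordant between arrays, at -1.55, 0.22 and 1.37. Single features within CCND1 and PCNA still ranged widely, from -4.88 to 0.50 for CCND1 and from -5.03 to 0.12 for PCNA on array 1.

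Members with fewer features moved by differing amounts. MCM2 gained a value on array 2 and had -1.98, -3.21 and -1.87, with a mean of -2.35 ± 0.44 (SE, n = 3 arrays, limma adjusted p = 0.0667). POLA1 had -1.88, -2.23 and -3.22, all below, where its own position gave a mean of 0.24 (mean -2.44 ± 0.43, SE, n = 3 arrays, limma adjusted p = 0.0595). CDT1 had -3.39, -2.14 and -6.33, below on 3 of 3 arrays as at its own position. CCND2 at -1.83, -0.80 and -1.23 and CCND3 at -1.52, -1.01 and -1.89 were below at both places too. CDK4 had 0.43, -2.79 and -3.18, so array 1 left the side it held before. E2F2 had a mean of 0.01, against -2.16 at its own position. CDC6 had -0.31, 0.06 and 0.03, and DUT had 3.84, 2.13 and 0.51, above on all arrays where its own position had been on both sides. UNG, at 0.51, 2.45 and 0.38, was above on all arrays too, and RRM2 had -0.79, 0.82 and 0.98. ORC1 kept array 3 alone, at 5.27 against 0.59 at its own position. CDK6 at -0.47, -1.52 and -0.41 and GINS2 at -0.69, -1.26 and -2.96 were below on all arrays. GINS1, the lowest gene at its own position, kept 1 array there, at 0.44 on array 1 against -5.78 at its own position. MCM5 kept arrays 1 and 3, at 0.41 and 0.52 against -1.69 and -1.73, so the low values of both genes were not found at the better-agreeing places. MCM6 had -0.08 and 1.51 on arrays 1 and 3, and CDC45 had 0.42 and 0.70 on arrays 2 and 3. CCNE1 had 0.53 and 2.55 and E2F3 had 0.58 and 0.30 on arrays 1 and 2. TK1 had -1.45 and 3.36 on arrays 2 and 3, and RFC5 had -3.19 and 0.89 on arrays 1 and 3. GINS1, MCM5, MCM6, CDC45, CCNE1, E2F3, TK1 and RFC5 were not tested there because a value on 3 arrays was required. All shares of the 22 members tested at these places leave them out. Of 21 members tested at both places, 16 had a mean on the same side, and of 10349 genes 7523 did.

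The median over the 22 members at these places was -0.84, -0.56 and -1.16 on arrays 1, 2 and 3, and 17 had a mean below the array medians, 77.3% against 69.2% of all genes. All shares of the 22 leave out members lacking a value on an array, and most of those lay above. CCNE1, E2F3, MCM5 and CDC45 were above on both arrays they kept. GINS1, CCNE2, MCM3, MCM7, ORC1, RRM1 and RFC2 were above on the 1 they kept. MCM6, TK1, RFC5 and SLBP lay on both sides, and MCM4 and TYMS lay below on 1 array. With the most repeated value as zero as well, 8 of the 22 passed by limma on the lower side, 36.4% against 19.6% of all genes, and 0 on the upper, against 0.0161%. They were E2F1 at -3.21, POLA1 at -3.07, MCM2 at -2.98, CCND1 at -1.99, CCND3 at -2.10, PCNA at -1.84, CCND2 at -1.91 and CDT1 at -4.58. That combination of settings, and the leaving out of arrays at these places, were chosen after the values were seen. Without any 1 array, 0 of the 22 passed by limma at these places relative to the array median, with 5 below at an unadjusted p under 0.05 whichever array was left out. These 5 are 22.7% of the members, against 24.7%, 16.1% and 18.2% of all genes without arrays 1, 2 and 3. Above, 0, 0 and 1 members reached that p, against 0.763%, 0.297% and 0.426% of all genes.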

How the data were processed

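RNA of MCF10A cells was compared on 3 two-colour oligonucleotide arrays. The deposited values are log2 ratios that the authors formed from the channels of each array. How the arrays were scanned and normalized is not given in the sources used here. Base 2 was read from the values, since the highest value lay 16.61 above the most repeated value on each array, the log2 of a round ratio. Centring and direction stay unknown. The number of arrays limits the precision, and depth does not apply.

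Features were named from the platform annotation. Of 31332 features with 1 symbol, 31291 matched the RefSeq gene table (GRCh38.p14) by Entrez identifier and 0 changed symbol; 93 had several symbols and 13795 none. Promoter sequences are from RefSeq. Each array was centred on its median over all features, and features of a gene were averaged. Genes with a value on all 3 arrays were tested against 0, two-sided, with limma 3.58.1 (lmFit, eBayes) in R 4.3.3 with Benjamini-Hochberg adjustment over 12550 genes and a threshold of 0.05. The running of the test was checked on simulated data, where recovery of added changes was required only with 1 fixed spread for all genes. That check does not measure its power at the spread of these arrays. Every member was to be named, and from the other pathway genes those past the threshold or else the 2 with the smallest p and the same sign on all arrays in each direction; G2 to M and marker lists are given by counts.

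The members, lists, roles and settings were chosen with earlier results of these data known. There were 16 other settings, and 7 were added after seeing the data. Single feature intensities were not used here.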

Additional observations from a re-analysis of the deposited data

How the results depend on the processing

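Each ratio already pairs obscurin shRNA and control shRNA cells on its array, so the test of the ratios is a paired one and no further replicate block exists. Counts of genes past the threshold, 0 above and 0 below, were repeated by scaling, quantile normalization, median of features, values on at least 2 arrays, robust eBayes, highest values left out, values 1 feature row earlier, values as deposited, centring on tested genes, and leaving out each array, all by limma. They were 2 and 2161 with the most repeated value as zero, 6 and 1923 for single features, 2 and 746 with each stretch at its better-agreeing place, and 0 and 1 by a 1-sample test without moderation. Added at the better-agreeing places were 2 and 2437 with the most repeated value as zero and 3 and 913 with the median of features. Members below were 5, 4, 1, 8 and 1 in these settings apart from the 1-sample test (0), and 0 above. E2F1 also passed with the median of features there.

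The mean over arrays of the median of the members was -0.44 and became 0.94 as deposited, 0.036 centred on tested genes, -1.06 with the most repeated value as zero, -0.91 with values 1 row earlier and -0.85 at the better-agreeing places. For G1 cyclins and CDKs it was -0.87, against 0.51, -0.39, -1.50 and (better-agreeing places) -1.30. For nucleotide synthesis it was 0.52, against 1.90, 0.99, -0.11, 0.79 and 1.25 in the order of the members. For origin licensing it was -0.36, against 1.03, 0.12, -0.98, -2.07 and -2.00, and -0.071 with values on at least 2 arrays. With values 1 row earlier and at the better-agreeing places, other genes had 3 values, so these medians are not of the same genes. Origin licensing there held CDC6, CDT1 and MCM2, with MCM2 added and MCM5 and MCM6 gone. Nucleotide synthesis held RRM2 and DUT without TK1, and the G1 genes lacked CCNE1. Members with 3 values were 23 and 22 there, instead of 29. As deposited, E2F genes had -0.44, fork factors 0.97 and the other S phase genes 0.89.

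Signs of means that passed no threshold turned as follows. As deposited: CCND1 1.12, CCND2 0.46, CDT1 0.034, DUT 1.02, E2F1 0.043, GINS2 0.31, PCNA 0.80, POLE 0.79, RFC4 0.87 and UHRF1 0.11. Centred on tested genes: CCND1 0.21 and DUT 0.11. With the most repeated value as zero: CDC45 -0.034, POLA1 -0.39, RFC3 -0.067, RRM2 -0.11 and UNG -0.34. With values 1 row earlier: CDC6 -0.072, CDK2 -0.80, DUT 1.73, POLA1 -2.44, RFC3 -0.83, RRM2 -0.14 and UHRF1 0.24. At the better-agreeing places: CDC6 -0.072, DUT 2.16, E2F2 0.012, POLA1 -2.44 and RFC3 -0.025. Leaving out 1 array gave a range of -0.79 to 0.084 for CCND1, -1.16 to 0.31 for DUT, -0.10 to 0.83 for POLA1, -1.08 to 0.37 for POLE, -0.98 to 0.23 for RFC4, -0.18 to 2.22 for TK1 and -0.17 to 0.85 for UNG. The cause of these turns was not tested beyond the shift of zero that each centring makes by construction.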
